A study of Mus musculus with 12 samples.

Results

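Of the 147985 loci found open in transformed mouse embryonic fibroblasts (MEFs) by ATAC-seq, 12254 were promoter loci that carried a peak in all 7 peak lists, which is 8.28% of the loci (exact 95% interval 8.14 to 8.42%). The lists are of unequal size, and with each reduced to its 56774 highest scores the same rule found 6143. They were selected on the peaks themselves. Overlaps of 1 bp or more joined the peaks of the 7 lists into loci (chromosomes 1 to 19, X and Y), and a locus was kept if a peak of every list overlapped it and if at most 1000 bp separated it from a protein-coding transcription start site (TSS). These 12254 loci are called members below. Their presence in each list was fixed by this choice and is no finding. What the choice left free was how the peak scores ranked within each list, where the members lay, what sequence they had and which genes they belonged to.

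The 12 libraries fell into 7 groups of 3 lines. Transgenes for the transcription factor Mef2d and for Hdac7SA, a histone deacetylase in which serines are changed to alanine so that it stays in the nucleus, made the Hdac7SA.Mef2d line. Hras.E1A and Hras.Myc cells, which the labels write Ras.E1A and Ras.Myc, carried the oncogene Hras together with adenoviral E1A or Myc. Each line had 2 untreated libraries. Both Hras lines also had 2 libraries each from cells given PD0325901 (PD, an inhibitor of the kinases MEK1 and MEK2) and 1 library each from cells given trichostatin A (TSA, an inhibitor of histone deacetylases). Cells were treated for 2 days, and about 50000 of them went into a library. The cell line label and the methods of the study give OG2 MEFs, which carry a GFP reporter driven by Oct4, for all groups. The growth notes of the labels name wildtype ICR embryos of embryonic day 13.5. The lines were made by transfection and passaged for a month or longer, and the sources used here do not say whether a line came from 1 clone. The study describes the Hdac7SA.Mef2d line as able to reprogram to pluripotency, the Hras.E1A line as able to do so while MEK is inhibited, and the Hras.Myc line as unable, and the comparisons ask how open chromatin differs between them. Wildtype MEFs were not analysed here.

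Promoters of genes that most cells use usually lie in stretches rich in GC and CpG that stay unmethylated and free of nucleosomes around the start site. General activators such as the SP and KLF factors, NF-Y, NRF1, the ETS family and YY1 bind there. Enhancers away from start sites vary more between cell types, and in fibroblasts many hold sites for AP-1, the Fos and Jun dimers that the MEK and ERK kinases activate. Histone deacetylases remove acetyl groups from histone tails, and their inhibition raises acetylation.

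Sequence from a few members shows the range of these promoters (mm10, read from the GRCm38.p6 assembly, 5′ to 3′ on the strand of the gene, exons left out, at most 160 bp). A GC box reads GGGCGG or, on the other strand, CCGCCC, and an AP-1 site TGACTCA or TGAGTCA. The first group gives the members with the highest mean rank over the 7 lists, with matches to any of the 15 motifs counted further on in capitals. The capitals mark an NF-Y site at Zfand6 (chr7:84679397-84679556, minus strand), an E2F site and a GC box at Scp2 (chr4:108071420-108071579, minus strand), and a GC box and the palindrome CTCGCGAG at Tubgcp5 (chr7:55793994-55794153, plus strand).
Zfand6: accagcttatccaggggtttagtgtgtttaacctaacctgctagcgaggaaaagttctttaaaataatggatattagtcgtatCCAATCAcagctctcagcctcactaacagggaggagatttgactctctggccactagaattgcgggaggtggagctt
Scp2: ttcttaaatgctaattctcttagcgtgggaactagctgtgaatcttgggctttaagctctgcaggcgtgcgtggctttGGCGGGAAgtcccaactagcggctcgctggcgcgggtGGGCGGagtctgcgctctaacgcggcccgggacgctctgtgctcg
Tubgcp5: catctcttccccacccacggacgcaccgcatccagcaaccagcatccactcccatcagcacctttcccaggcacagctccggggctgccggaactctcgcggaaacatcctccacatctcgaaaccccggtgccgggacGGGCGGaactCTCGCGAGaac
The second group comes from members with the lowest mean rank, with a YY1 site, a GC box and an E-box at Ubxn6 (chr17:56075029-56075188, minus strand) and a GC box at Hrk (chr5:118169588-118169747, plus strand).
Ubxn6: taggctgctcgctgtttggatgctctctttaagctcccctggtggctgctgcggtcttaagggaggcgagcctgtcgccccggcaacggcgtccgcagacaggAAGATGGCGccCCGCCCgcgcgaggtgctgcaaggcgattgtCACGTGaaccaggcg
Hrk: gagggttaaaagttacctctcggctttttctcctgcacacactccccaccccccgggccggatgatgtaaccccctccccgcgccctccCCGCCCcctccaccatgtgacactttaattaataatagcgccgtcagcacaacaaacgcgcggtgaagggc
The third group shows members that ranked lower with PD in both Hras lines and were picked because they hold an AP-1 site. Such a site was in 32 of the 111 members lower with PD, so the group is not typical of them. AP-1 sites are in capitals at Cdk14 (chr5:5265420-5265579, minus strand), at Lect2 (chr13:56549512-56549671, minus strand), where an ETS core is marked as well, and at Sprr1a (chr3:92485928-92486087, minus strand).
Cdk14: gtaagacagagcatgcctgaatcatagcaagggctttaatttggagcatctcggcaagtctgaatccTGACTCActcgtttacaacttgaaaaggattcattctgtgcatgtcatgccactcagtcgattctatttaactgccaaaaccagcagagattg
Lect2: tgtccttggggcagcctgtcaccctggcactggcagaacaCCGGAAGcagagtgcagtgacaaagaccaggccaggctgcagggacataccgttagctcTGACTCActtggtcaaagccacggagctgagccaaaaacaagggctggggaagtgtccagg
Sprr1a: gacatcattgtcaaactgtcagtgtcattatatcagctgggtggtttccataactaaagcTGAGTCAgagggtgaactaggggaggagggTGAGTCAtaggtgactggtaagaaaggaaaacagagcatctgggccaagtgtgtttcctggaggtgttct
The last group shows members that ranked higher with PD in both lines, with a GC box and an ETS site at Cttnbp2nl (chr3:105053147-105053250, minus strand) and a GC box at Aif1l (chr2:31950046-31950138, plus strand).
Cttnbp2nl: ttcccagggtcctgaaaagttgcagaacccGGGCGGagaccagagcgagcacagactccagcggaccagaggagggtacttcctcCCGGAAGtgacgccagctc
Aif1l: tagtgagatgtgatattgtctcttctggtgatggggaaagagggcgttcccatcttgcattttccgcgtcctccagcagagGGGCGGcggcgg
CpG dinucleotides numbered 14 in the stretch from Tubgcp5 and 16 in that from Ubxn6. The stretches from Zfand6, the highest member, and from Cdk14 and Lect2 held 3 each, and that from Sprr1a held 0.

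Promoter loci made up a larger share of the loci the more lists shared them. They were 2.10% of the 44325 loci open in 1 list, 9.23% of the 11298 open in 6 lists and 41.0% (40.5 to 41.6%) of the 29875 open in all 7. Put the other way, 71.9% (71.2 to 72.6%) of all 17045 promoter loci were open in every list, against 13.5% (13.3 to 13.6%) of the 130940 loci farther from a TSS, called distal loci. Both shares rest on lists of unequal size. The remaining 4791 promoter loci were open in 1 to 6 lists. Among the 1043 promoter loci missing from a single list, the missing list was Hras.Myc with TSA for 436 (41.8%), Hras.Myc with PD for 188, Hdac7SA.Mef2d for 184 and Hras.E1A with PD for 122. The remaining lists, Hras.E1A with TSA, Hras.Myc and Hras.E1A, lacked 44, 39 and 30 of them. For distal loci missing from a single list, the missing list was Hras.E1A with PD for 31.1%, Hras.Myc with PD for 26.4% and Hras.Myc with TSA for 19.8%. At the edge of the rule, the locus nearest Spryd4 was just inside with a gap of 1000 bp, and the locus nearest Psd was just outside with 1002 bp.

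**Figure D1:**
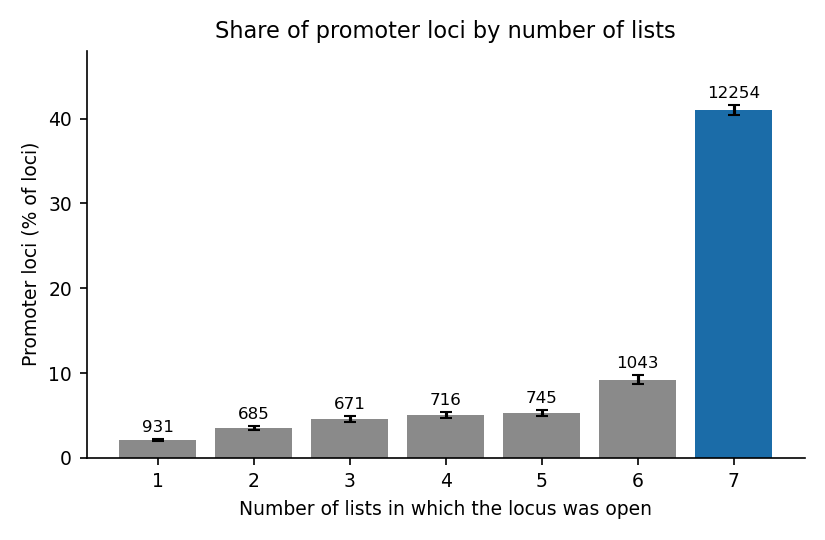
Share of promoter loci (vertical axis, percent of loci) among loci open in 1 to 7 lists (horizontal axis), with exact 95% binomial intervals for counting error and the number of promoter loci above each bar. The share was 9.23% at 6 lists and 41.0% at 7 lists, the bar that holds the 12254 members.

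The lists held between 56774 peaks (Hras.Myc with PD) and 119251 peaks (Hdac7SA.Mef2d), each peak 400 bp wide, and read depth is unknown because the files give no counts. Libraries of a group were pooled in its list, so no spread between replicates could be computed and no test was made. A member with a lower rank was still called as a peak in every list. The lowest score of any member was 1.20, at Nectin2 in Hras.Myc, at the floor that all lists share. The lists are not independent, since the authors recovered weak peaks by drawing on other samples.

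Members sat on the start site. The TSS lay inside the locus for 9954 members (81.2%, 80.5 to 81.9%), against 1927 (40.2%, 38.8 to 41.6%) of the promoter loci open in 1 to 6 lists. The centre of a member lay at a median of 13 bp upstream of the nearest TSS, with quartiles at 81 bp upstream and 53 bp downstream. For 11945 members (97.5%) the locus was 1 peak position of 400 bp, and the widest, at Pja1, measured 799 bp. By annotation, 37.3% of the centres were outside genes, 37.2% in an untranslated region, 19.4% in an intron and 6.17% in coding sequence. Among the other promoter loci an intron was the most frequent place, with 43.2%. A second protein-coding TSS on the opposite strand within 1000 bp upstream, the arrangement of a divergent promoter, was found for 884 members (7.21%, 6.76 to 7.69%) and for 84 (1.75%, 1.40 to 2.17%) of the other promoter loci.

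A member lay within 1000 bp of a TSS of 12529 of 21851 protein-coding genes (57.3%). The share was highest on chromosome 12, with 458 of 642 genes (71.3%, 67.7 to 74.8%), and lowest on chromosomes X, with 388 of 948 (40.9%, 37.8 to 44.1%), and Y, with 0 of 183, which allows a share of up to 2.00% by the exact interval. The study gives the sex of the animals as unknown, and whether the lines carry a Y chromosome was not tested. For 891 of the genes with a member (7.12%) there were 2 or more member loci. Ank2, Dab2ip, Pde4d, Plec and Prkag2 had 4 member loci each. At Dab2ip, which encodes a Ras GTPase-activating protein, the mean percentile over the lists of the 4 loci ran from 5.01 to 84.3, so promoters of 1 gene could lie at opposite ends of the ranking. A percentile here is the place of a locus by score among the 29875 loci open in all lists, from 0 for the lowest to 100 for the highest, computed separately in each list.

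Genes of general cell functions had a member without exception in 8 of the 24 gene lists examined. These were the 42 cytosolic ribosomal protein genes, 31 proteasome subunits, 32 splicing factors, 20 aminoacyl-tRNA synthetases, 38 genes of the mitochondrial respiratory chain, 29 genes of nucleolar ribosome biogenesis, 27 genes of cholesterol synthesis and 26 chaperones and heat shock proteins. Nearly complete were cell cycle and DNA replication (39 of 40, with Aurkb open in 6 lists), histone acetyltransferases and deacetylases (33 of 34), targets and feedback inhibitors of ERK (36 of 38), glycolysis and hypoxia (25 of 27) and p53 targets (24 of 26). Replication-dependent histones (24 of 31) and the family of the transgenes (12 of 14) followed. Over all genes the share was the 57.3% given above.

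Genes of particular cell types were members less completely than those of general functions. Fibroblast genes had a member for 19 of 30 (63.3%), Hox genes for 24 of 39 (61.5%) and neural markers for 11 of 20 (55.0%), close to the 57.3% over all genes. Epithelial genes had a member for 14 of 30 (46.7%), pluripotency genes for 10 of 27 (37.0%) and endothelial markers for 4 of 15 (26.7%), below that share. Germline genes (1 of 26, Dazl), blood and macrophage markers (1 of 20, Cd34) and hepatocyte markers (1 of 20, Apob) had 1 member each. The promoters of the defining markers Ptprc, Alb, Pecam1 and Cdh5 held a peak in 0 lists. Of 12 MEF markers, 8 were members (Col1a1, Col3a1, Vim, Fn1, Pdgfra, Pdgfrb, Twist1 and Twist2), while the promoters of Prrx1, Thy1, Col1a2 and Postn were open in 5, 3, 2 and 0 lists. Vim, the intermediate filament of fibroblasts, ranked low, with a mean percentile of 8.72. Pou5f1 and Nanog, the core pluripotency factors, had a peak in 0 lists, while Sox2, Klf4, Klf5 and Sall4 were members, with mean percentiles of 22.5, 40.5, 83.3 and 9.11.

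Members were rich in GC and CpG. The central 400 bp had a median GC content of 65.0% (quartiles 59.5 and 70.8%), against 55.5% in promoter loci open in 1 to 6 lists and 50.0% in the 17621 distal loci open in all lists. The median number of CpG dinucleotides was 34, against 12 and 6. The ratio of observed to expected CpG was 0.82, against 0.43 and 0.26. With a cutoff of 50% GC and a ratio of 0.6, 10038 members (81.9%, 81.2 to 82.6%) were CpG-rich, against 32.1% (30.7 to 33.4%) of the other promoter loci and 8.55% (8.14 to 8.97%) of the distal loci. The remaining 2216 members are called CpG-poor.

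Motifs of general promoter factors were more frequent in members than in the other promoter loci. The classes also differ in position, with the TSS inside 81.2% of members and 40.2% of the other promoter loci. No motif share or ratio is adjusted for position. The central 200 bp of a locus were read on both strands for each motif. The GC box GGGCGG, bound by SP and KLF factors, was in 62.1% of members (61.2 to 62.9%), 26.1% of the other promoter loci and 12.4% of the distal loci. With promoter loci weighted to the GC content of members, the ratio of members to other promoter loci was 1.38 (1.32 to 1.44), against 2.38 without weights. The ratio of members to distal loci, weighted likewise, was 1.26 (1.20 to 1.31), against 5.03 without weights. NF-Y sites (CCAAT followed by CA, CG, GA or GG) were in 19.8% of members (19.1 to 20.5%), 7.66% of the other promoter loci and 7.32% of the distal loci. The ETS core CCGGAAG was in 14.0% of members (13.4 to 14.6%), 2.80% of the other promoter loci and 2.11% of the distal loci, and the GC-weighted ratio was 4.08 (3.33 to 5.0). For YY1 (AAGATGGCG), which regulates many housekeeping genes, the shares were 2.41, 0.271 and 0.306%, and the GC-weighted ratio to other promoter loci was 8.54 (4.44 to 16.4). NRF1 (GCATGCGC), the cyclic AMP response element TGACGTCA, the palindrome CTCGCGAG and the THAP11 and ZNF143 type site ACTACAATT were in 3.79, 2.86, 1.57 and 0.555% of members and in 0.668, 0.543, 0.230 and 0.0835% of the other promoter loci. The E-box CACGTG (7.06 against 4.45%) and the E2F site TTCCCGCC or TTTGGCGC (3.52 against 1.84%) differed less. Their GC-weighted ratios to other promoter loci were 1.40 (1.18 to 1.67) and 1.30 (1.01 to 1.68).

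Sites of AP-1, RUNX and TEAD, factors known from enhancers, were less frequent in members than in the other classes, by an amount that changed with GC weighting. AP-1 (TGACTCA) was in 330 members, or 2.69% (2.41 to 3.00%), against 11.8% of the other promoter loci and 22.6% of the distal loci. RUNX (TGTGGT) was in 6.37, 13.7 and 17.4% of these classes and TEAD (GGAATG) in 6.48, 11.5 and 17.5%. For AP-1 the ratio of members to other promoter loci was 0.228 (0.200 to 0.260) and 0.558 (0.476 to 0.655) with GC weighting. For RUNX it was 0.463 and 0.794 (0.698 to 0.903) with GC weighting, and for TEAD 0.561 and 0.875 (0.764 to 1.00), an interval that reaches 1. CTCF (AGGGGGCGC, AGAGGGCGC or AGGTGGCGC) was in 3.93, 2.15 and 7.58%, so distal loci held it most often. The CArG box of SRF was rare, with 0.710, 0.793 and 1.31%, and its ratio to other promoter loci went from 0.895 to 1.53 (0.911 to 2.58) with GC weighting. A TATA box (TATAAA, 45 to 16 bp upstream of the TSS) stood at 119 members (0.97%, 0.81 to 1.16%) and at 2.42% (2.00 to 2.90%) of the other promoter loci. Over all 17045 promoter loci, a GC box was in 52.0%, NF-Y in 16.4%, ETS in 10.8%, RUNX in 8.44%, TEAD in 7.90%, the E-box in 6.32% and AP-1 in 5.26%. The shares were 3.43% for CTCF, 3.04% for E2F, 2.91% for NRF1, 2.21% for the cyclic AMP response element, 1.81% for YY1, 1.20% for the palindrome, 0.733% for the CArG box and 0.422% for the THAP11 type site. A match is a description of the letters and not a bound site, and letters of the GC box overlap some of the other motifs.

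**Figure D2:**
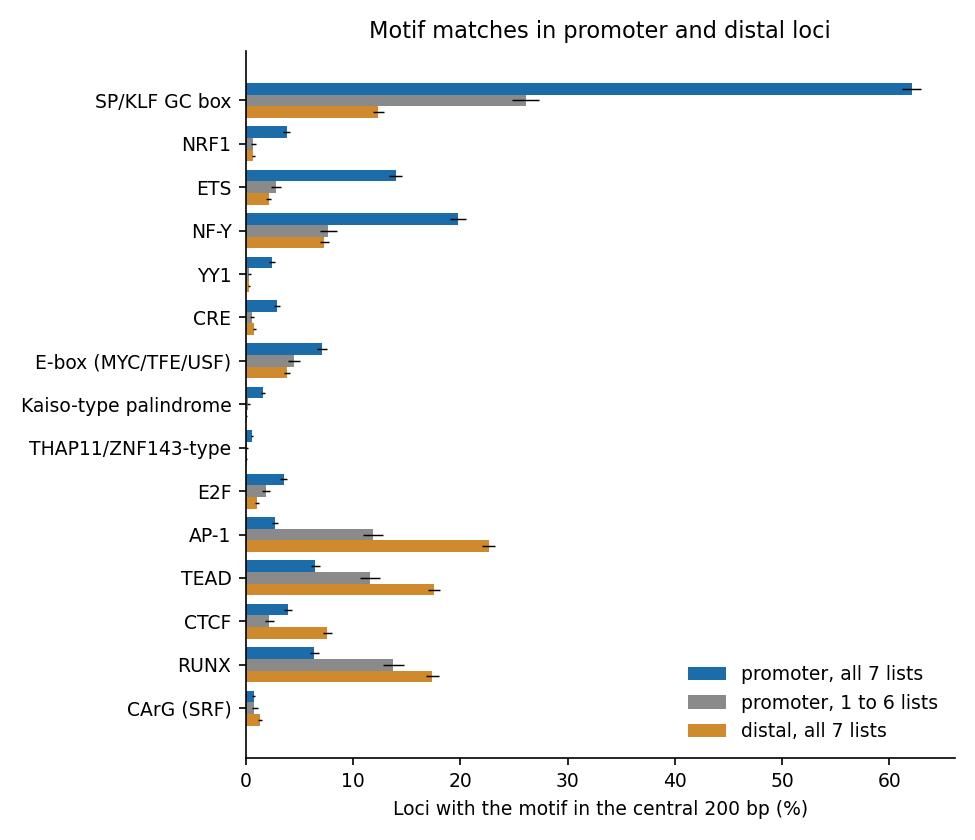
Share of loci with each of 15 motifs in the central 200 bp (horizontal axis, percent) for members (promoter, all 7 lists), for promoter loci open in 1 to 6 lists and for distal loci open in all 7 lists, with exact 95% binomial intervals for counting error. The GC box was in 62.1% of members, while AP-1 was in 2.69% of members and 22.6% of distal loci. The shares are not weighted for GC content.

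Members, which are 41.0% of the ranked loci, lay across the whole scale, with quartiles at 22.5 and 65.7 for untreated Hras.E1A, the lowest, and at 32.9 and 81.1 for Hras.Myc given TSA, the highest. Their median percentile was 46.7 in Hdac7SA.Mef2d, 42.7 for Hras.E1A and 46.3 for Hras.Myc. With PD it was 47.7 for Hras.E1A and 51.0 for Hras.Myc, and with TSA 49.5 and 60.2. The distal loci open in all lists, which make up the rest of the ranking, had 52.9, 56.2 and 53.1 in the untreated lines (same order), 52.0 and 49.2 with PD, and 50.3 and 43.4 with TSA. Members thus ranked below distal loci in 5 lists and above them in Hras.Myc with PD and with TSA, while the medians in Hras.E1A with TSA were close (48.7 to 50.4 against 49.6 to 51.1). Because both classes share 1 scale, a class can move up it only if the other moves down. Among all peaks of a list, members had medians of 53.9, 53.9 and 54.8 in the untreated lines, 60.2 and 58.2 with PD, and 62.0 and 73.6 with TSA. The list of Hras.Myc with TSA, from 1 library, stood apart by the rank of members and by the number of promoter loci missing from it alone.

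**Figure D3:**
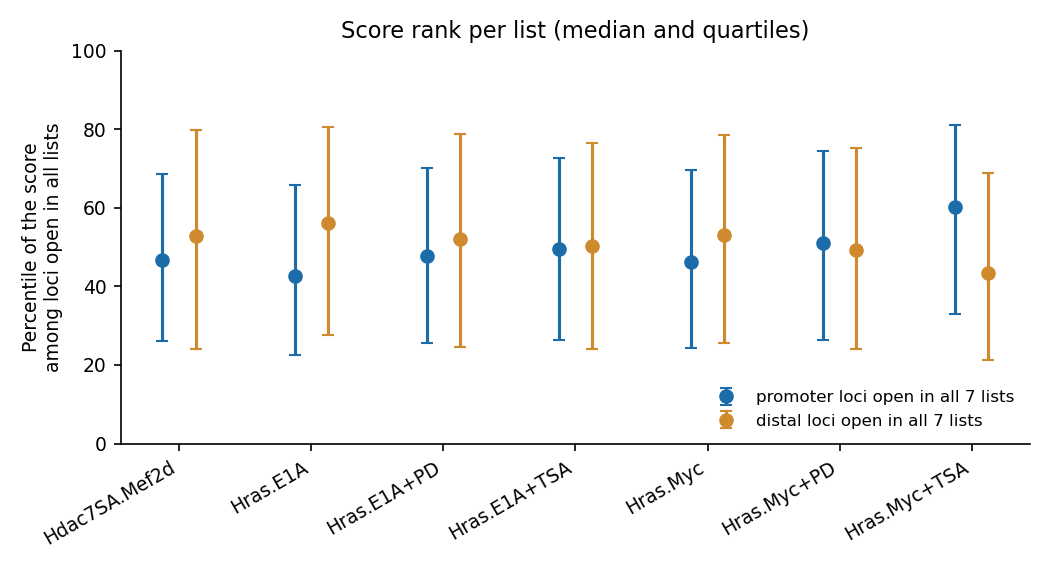
Percentile of the score among the 29875 loci open in all lists (vertical axis, 0 to 100) in each of the 7 lists (horizontal axis), for members and for distal loci open in all lists. Points are medians and bars run from the lower to the upper quartile over loci. Members were below distal loci in Hras.E1A (42.7 against 56.2) and above them in Hras.Myc with TSA (60.2 against 43.4).

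Members kept their ranks across lists more closely than distal loci did. Over the 21 pairs of lists, Spearman's rho across the 12254 members ran from 0.678 (Hdac7SA.Mef2d and Hras.Myc with TSA) to 0.907 (Hras.E1A and Hras.Myc), and across the distal loci from 0.296 to 0.791. These are descriptions over loci that share lists, promoters and base composition. The range of a member's percentile over the 7 lists had a median of 30.4 points (quartiles 20.9 and 41.6), against 50.1 (34.3 and 65.9) for distal loci. A range of 50 points or more was seen in 1640 members (13.4%) and in 50.3% of distal loci. At the other end, 605 members (4.94%) stayed within 10 points.

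Members ranked lower the farther their centre lay from the start site. The median of the mean percentile was 56.7 for the 4786 members centred less than 50 bp from the TSS, 55.6 from 50 to under 100 bp, 46.4 from 100 to under 200 bp, 30.1 from 200 to under 500 bp and 23.2 for the 918 at 500 bp or more. Members with the TSS inside had 54.2 (53.5 to 55.1), against 26.9 (25.9 to 28.3) with the TSS outside. Divergent promoters had 56.4 (54.3 to 58.9) and the remaining members 49.0 (48.3 to 49.9). CpG-rich members had 51.3 and CpG-poor members 41.3. The relation with CpG number was not monotonic, with 43.7 in the 2576 members with at most 22 CpG, 56.2 in the 2689 with 31 to 38 and 42.2 in the 2443 with 47 or more. In each of the 7 lists the members with 31 to 38 CpG had the highest median of the 5 classes.

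**Figure D4:**
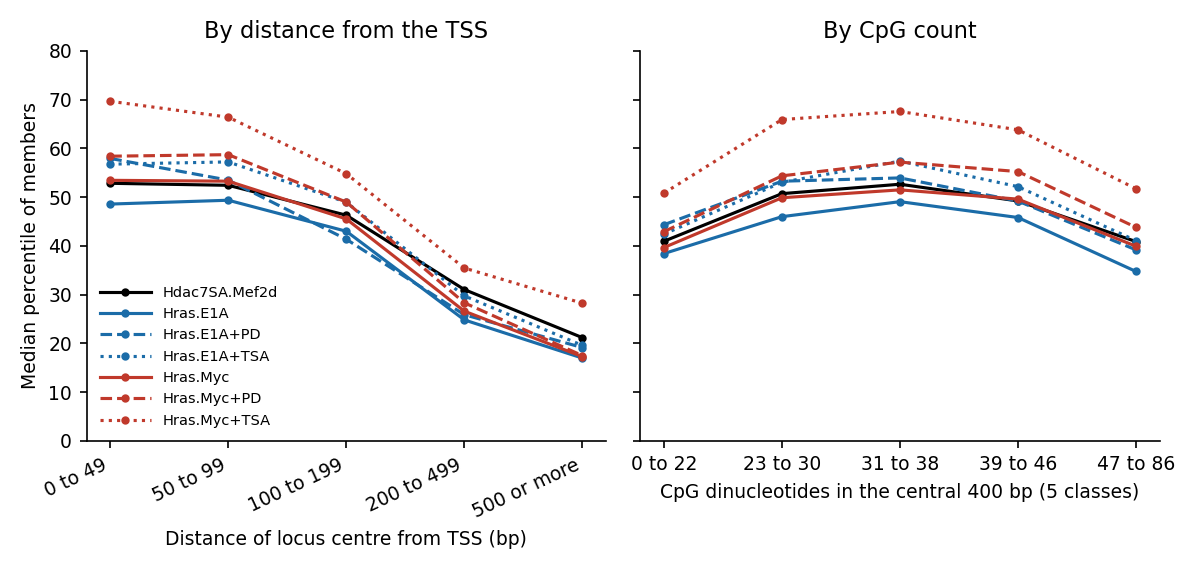
Median percentile of members (vertical axis) by distance of the locus centre from the TSS (left, bp) and by number of CpG dinucleotides in the central 400 bp (right, 5 classes of members), with 1 line per list. In every list the median was lowest at 500 bp or more and highest in the class with 31 to 38 CpG.

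Members with an NF-Y site ranked higher than those without. The median of the mean percentile was 63.9 (62.3 to 65.0) for the 2421 with a site and 45.9 (45.2 to 46.8) without. For ETS it was 61.7 with and 47.3 without, for NRF1 61.0 and 49.1, and for the THAP11 type site 63.9 and 49.5. YY1 (52.9 against 49.5) and AP-1 (52.1 against 49.5) separated the members little, the intervals of the AP-1 medians overlapping. In the 10% of members with the highest mean percentile, 37.2% had an NF-Y site and 21.4% an ETS site, against 6.77% and 4.73% in the lowest 10%.

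The highest member was the promoter of Zfand6 (chr7:84679250-84679649), a zinc finger protein gene, with percentiles from 99.3 to 99.9 over the lists. Scp2 (a sterol carrier protein), Tubgcp5 (a subunit of the gamma-tubulin complex), Cacng2 (an accessory subunit of AMPA receptors), Snupn (an import factor of spliceosomal particles), Flad1 (FAD synthesis), Fis1 (mitochondrial fission) and Rtl8a followed, with mean percentiles from 98.8 to 99.4. The lowest member was Ubxn6 (chr17:56074879-56075278), a cofactor of the ATPase p97, with percentiles from 0.117 to 1.79. Aatk, Alg3 (a mannosyltransferase), Zfp692, Nipbl (the cohesin loader), Hrk (a proapoptotic protein), Dach1 and Trp53i13 had mean percentiles from 0.816 to 1.14. At the Alg3 locus the TSS of Eef1akmt4 lies within 1000 bp as well.

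With PD, a change was counted where the percentile moved by 20 points or more in the same direction in Hras.E1A as in Hras.Myc, whose pairs of lists have no list in common. Of the 12254 members, 416 (3.39%, 3.08 to 3.73%) ranked higher and 111 (0.906%, 0.746 to 1.09%) lower with PD in both lines. Over all 29875 loci open in every list, which include the members, 4.91% ranked higher and 6.03% lower. The rule that chose the members required a peak with and without PD, so these shares are a description and no test was made. The median shift of members was 2.42 points in Hras.E1A (quartiles -5.93 and 12.7) and 2.66 in Hras.Myc (quartiles -4.13 and 11.0). Ranked among members only, 309 were higher and 216 lower, and ranked in the whole lists 352 and 95. Across members the shifts of the lines had a Spearman's rho of 0.148, and across distal loci 0.321.

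The largest shift upward in both lines was at the promoter of Ech1 (chr7:28825003-28825451), an enzyme of fatty acid oxidation. Its percentile was 50.9 in Hdac7SA.Mef2d, 13.8, 91.2 and 8.85 in Hras.E1A untreated, with PD and with TSA, and 24.6, 94.3 and 43.8 in Hras.Myc in that order. Both lists with PD stood above the other 5. Snap25, a SNARE protein of synaptic vesicle fusion, had 68.9 in Hdac7SA.Mef2d, 33.9, 97.4 and 12.8 in Hras.E1A untreated, with PD and with TSA, and 15.5, 96.0 and 45.7 in Hras.Myc in that order, again with the PD lists on top. At Plxnb2, a semaphorin receptor, where the locus is in an intron 889 bp from the TSS, the percentile with PD went from 23.3 to 83.4 in Hras.E1A and from 13.5 to 92.6 in Hras.Myc, and was 86.7 in Hdac7SA.Mef2d. Nprl3, a subunit of the GATOR1 complex that restrains mTORC1, went from 22.9 to 85.1 and from 16.6 to 73.4. Adgre5, the adhesion receptor CD97, went from 1.04 to 66.1 and from 2.18 to 60.5, near the bottom without PD. Ntn5, Zcchc4, Cttnbp2nl, Aif1l and Abhd6 completed the 10 largest, with shifts between 57.4 and 79.1 points. None of the 10 had an AP-1 site, which 2.69% of all members had.

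Among the members that ranked lower with PD, Cdk14 (chr5:5265304-5265703), a cyclin-dependent kinase, was first. Its percentile was 89.8 in Hdac7SA.Mef2d, 82.7, 10.8 and 80.1 in Hras.E1A untreated, with PD and with TSA, and 89.3, 12.7 and 41.9 in Hras.Myc in that order. The lists with PD were the lowest, and Hras.Myc with TSA lay between them and the other 4. Sprr1a, a precursor of the cornified envelope of keratinocytes, had 92.7 in Hdac7SA.Mef2d, 94.5, 22.5 and 97.8 in Hras.E1A untreated, with PD and with TSA, and 98.0, 37.0 and 91.6 in Hras.Myc in that order. Both stretches are printed above, and that of Sprr1a holds 2 AP-1 sites. Lect2, a secreted liver protein whose TSS lies 890 bp from the locus, went from 86.8 to 5.34 in Hras.E1A and from 97.6 to 34.5 in Hras.Myc, and stood at 5.52 in Hdac7SA.Mef2d. Prkg2, a kinase that responds to cyclic GMP, went from 66.5 to 12.9 and from 96.0 to 37.0. Evi5, Trim69, Abca4 (a transporter of photoreceptors), Tor4a and Tpd52 had shifts of 47.9 to 61.0 points downward. Of these 9 genes, 8 had an AP-1 site in the central 200 bp, all but Trim69, and none of the 9 was CpG-rich.

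Members with an AP-1 site differed from the others in their shift with PD, a comparison made after the shifts had been seen. Of the 330 members with AP-1, 32 (9.70%, 6.73 to 13.4%) ranked lower with PD in both lines, against 79 of 11924 without (0.663%, 0.525 to 0.825%). Of the 330, 3 ranked higher, against 413 of those without (3.46%). With AP-1 the median shift was -5.87 points for Hras.E1A and -1.96 for Hras.Myc, and it was 2.58 and 2.77 without. The medians of members with AP-1 were 52.8 in Hras.E1A, 40.1 with PD and 56.9 with TSA, and 53.8, 43.6 and 67.6 in Hras.Myc. Without AP-1 they were 42.5, 47.9 and 49.3, and 46.1, 51.1 and 60.0. The TSA lists thus stood above the untreated ones with and without AP-1. With TSA, 15 of the 330 (4.55%) were higher in both lines and 3 (0.909%) lower, beside 5.22% and 0.694% of all members. The intervals treat loci as independent and cover counting error only.

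CpG content moved with this difference. Among CpG-poor members, 30 of 168 with AP-1 (17.9%, 12.4 to 24.5%) and 43 of 2048 without (2.10%, 1.52 to 2.82%) ranked lower with PD in both lines. Among CpG-rich members the counts were 2 of 162 (1.23%, 0.150 to 4.39%) and 36 of 9876 (0.365%, 0.255 to 0.504%). In distal loci open in all lists, 25.7% of 3990 with AP-1 and 4.86% of 13631 without were lower. Members with the TSS inside and outside both showed the difference, with 7.49% against 0.545% and 14.6% against 1.18%. Seen from the members that ranked lower, 32 of 111 (28.8%, 20.6 to 38.2%) had an AP-1 site, 34.2% were CpG-rich, and 0 had a YY1, NRF1 or CTCF site. For each of these sites the interval reaches 3.27%. That is above the 2.41% of all members for YY1 and below the 3.79% for NRF1 and 3.93% for CTCF. Such shares mean few sites among 111 members, and the difference was not tested. The members that ranked higher were 74.3% CpG-rich, and 22 of 416 (5.29%) had a YY1 site, against 2.41% of all members.

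**Figure D5:**
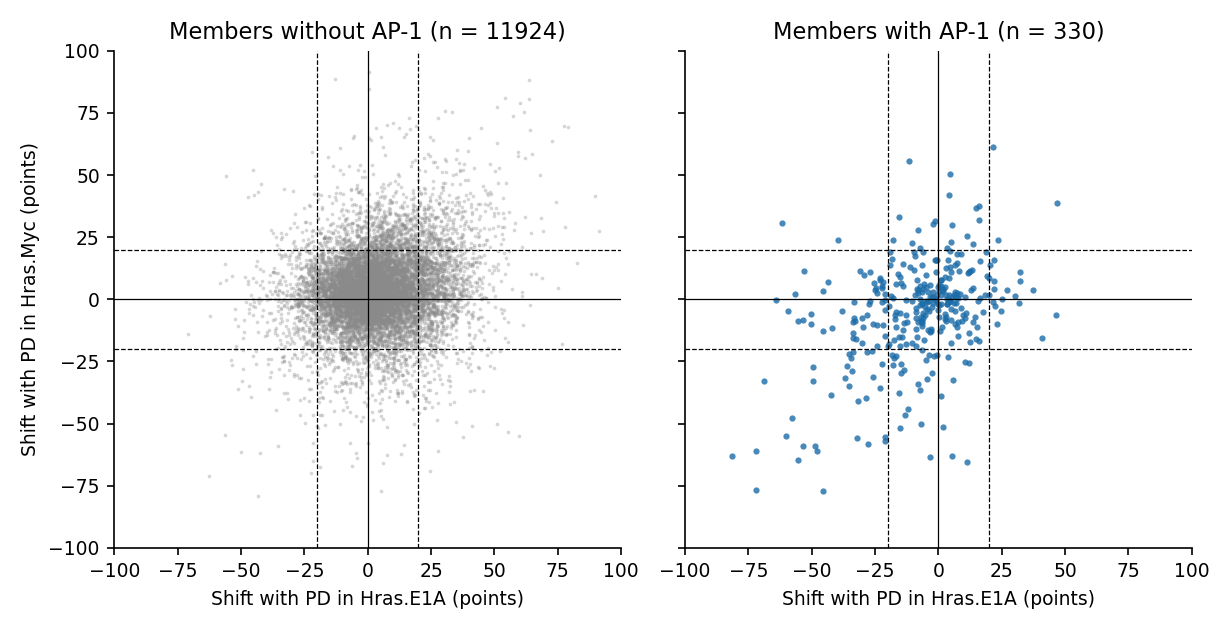
Shift of the percentile with PD in Hras.E1A (horizontal axis, points) and in Hras.Myc (vertical axis, points), 1 point per member, for members without AP-1 (left) and with AP-1 (right) in the central 200 bp. Dashed lines mark shifts of 20 points. In the lower left corner lie 79 of 11924 members without AP-1 and 32 of 330 with AP-1.

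The ERK targets and feedback inhibitors were listed because PD blocks the kinase above ERK. Over all 12516 gene symbols with a member, 433 ranked higher with PD in both lines and 98 lower. Of the 36 ERK targets with a member, 4 ranked higher and 0 lower. These were Mcl1, an antiapoptotic protein, with 35.2 against 69.9 with PD in Hras.E1A and 29.9 against 86.4 in Hras.Myc, and Etv4, an ETS factor, with 33.9 against 70.2 and 18.5 against 70.2. Dusp5, a phosphatase of ERK, had 40.7 against 72.7 and 48.9 against 73.4, and Epha4, an ephrin receptor, 21.4 against 44.5 and 28.9 against 52.4. The median shift of the 36 genes was 3.37 and 6.86 points, beside 2.58 and 3.00 over all 12516 gene symbols with a member. The immediate early genes Fos and Egr1 did not pass in both lines. Fos had 19.8 and 30.5 in Hras.E1A without and with PD and 21.4 and 19.6 in Hras.Myc. Egr1 had 31.8 and 12.8, and 26.7 and 31.1.

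Beside 433 higher and 98 lower of 12516 gene symbols, counts of 0 or 1 in the short lists below set no list apart. Proteasome subunits had 4 of 31 higher and 0 lower with PD in both lines. Psmb4 went from 24.2 to 71.4 in Hras.E1A and from 29.2 to 72.1 in Hras.Myc, and Psma3, Psmd11 and Psmd12 were the others. Aminoacyl-tRNA synthetases and the respiratory chain had 3 each higher and 0 lower. Among ribosomal protein genes, Rps13 alone passed, with 43.4 against 80.2 and 48.1 against 80.6. Of the fibroblast genes, Ddr2, a collagen receptor, was higher (17.4 against 47.1 and 8.95 against 52.7) and Col3a1, a fibrillar collagen, lower (50.1 against 17.2 and 43.6 against 18.8). The keratin gene Krt8 was lower, with 66.4 against 32.3 and 94.6 against 65.6. Hoxa10 and Hoxd10 were higher among 24 Hox genes, Snap25 and Syt1 among 11 neural markers, and 1 p53 target was lower. Of the pluripotency genes 0 passed in either direction. Sox2 had 8.40 and 43.2 in Hras.E1A without and with PD and 14.9 and 21.2 in Hras.Myc. Chaperones, splicing factors, nucleolar genes, cholesterol synthesis and histone acetyltransferases and deacetylases had 1 each higher and 0 lower, and cell cycle genes, glycolysis and hypoxia, replication-dependent histones, the family of the transgenes, and the germline, blood, endothelial and hepatocyte lists had 0 in either direction.

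With TSA, members as a class stood higher among the loci open in all lists in both lines. The median shift was 3.99 points (3.73 to 4.22) for Hras.E1A and 8.30 (7.88 to 8.70) for Hras.Myc, and 66.5% and 70.1% of members ranked higher. The 95% intervals are taken over loci and cover no spread between libraries. By 20 points or more in both lines, 640 members (5.22%, 4.84 to 5.63%) were higher and 85 (0.694%, 0.554 to 0.857%) lower, beside 3.37% higher and 4.97% lower over all loci open in every list. Ranked among members only, 250 were higher and 292 lower, and ranked in the whole lists 705 and 42, so the balance of the directions depended on the scale. These lists come from 1 library each and share the untreated lists with the PD comparison. CpG-rich members had medians of 4.32 and 8.92, and CpG-poor members 2.55 and 5.40. Members that were higher were 84.4% CpG-rich, and members that were lower 55.3%.

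Fbxo22, an F-box protein of a ubiquitin ligase, led the upward shifts with TSA, with 28.4 against 87.3 in Hras.E1A and 38.5 against 97.7 in Hras.Myc. It stood at 57.0 and 62.9 with PD and at 55.9 in Hdac7SA.Mef2d, so both TSA lists were the highest. Hapln4, a link protein of the extracellular matrix of neurons, had 19.8 in Hdac7SA.Mef2d, 18.1, 23.8 and 69.7 in Hras.E1A untreated, with PD and with TSA, and 16.4, 31.5 and 69.4 in Hras.Myc in that order. Both TSA lists were above the other 5 there. Syn3, a synapsin, went from 41.1 to 91.7 and from 42.5 to 90.1, and H2-Eb1, an MHC class II gene, from 5.64 to 55.5 and from 12.8 to 59.8. Mettl22, Lrp11, Ufl1, Lrrc15, Ccdc189 and Calb1 were the others of the first 10. Downward, the zinc finger gene Zfp773 had 93.2 in Hdac7SA.Mef2d, 80.4, 58.5 and 8.83 in Hras.E1A untreated, with PD and with TSA, and 68.4, 95.8 and 1.25 in Hras.Myc in that order, with the TSA lists at the bottom. Sat2, an acetyltransferase, and Tmem52 followed. Cavin2, a coat protein of caveolae, went from 65.5 to 13.7 and from 62.1 to 5.70, and Fry from 70.2 to 21.5 and from 72.8 to 19.7. Lrrc71, Kifc3, Cftr (a chloride channel), B4galt7 and Zdhhc22 completed the 10.

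The median shift with TSA was above 0 in both lines for each of the 14 gene lists of general functions, regulators and histones. The shifts ran from 1.05 points (histone acetyltransferases and deacetylases) to 11.9 (proteasome) in Hras.E1A and from 3.54 (glycolysis and hypoxia) to 14.6 (cell cycle) in Hras.Myc, beside 4.49 and 9.03 over all genes with a member. Ranked among members only, the medians of 5 lists in Hras.E1A and of 2 lists in Hras.Myc were below 0. They were those of cell cycle, cholesterol synthesis, p53 targets, replication-dependent histones and histone acetyltransferases and deacetylases in Hras.E1A, and of cholesterol synthesis and glycolysis in Hras.Myc. Fibroblast genes had a median of -3.54 in Hras.E1A and 7.88 in Hras.Myc. Over all 12516 gene symbols with a member, 701 were higher with TSA in both lines and 82 lower. Of 36 ERK targets 5 were higher in both lines, of 31 proteasome subunits and of 20 aminoacyl-tRNA synthetases 4 each, and 0 were lower. Of 33 histone acetyltransferase and deacetylase genes, whose products include the targets of TSA, 1 was higher and 0 lower. Splicing factors, the respiratory chain, nucleolar genes and cell cycle genes had 3 each higher and 0 lower, ribosomal protein genes 2 higher and 1 lower, and chaperones, cholesterol synthesis, glycolysis and hypoxia, p53 targets, Hox genes and neural markers 1 each higher and 0 lower. The other 9 lists had 0 in either direction.

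Hdac7SA.Mef2d was compared with both untreated Hras lines, so its 2 comparisons share its list. By 20 points or more against both, 647 members (5.28%, 4.89 to 5.69%) ranked higher and 593 (4.84%, 4.47 to 5.23%) lower in Hdac7SA.Mef2d, beside 9.14% and 10.5% over all loci open in every list. Ranked in the whole lists, 364 were higher and 642 lower, and among members only 646 and 811. CpG-poor members had 8.30% higher and 8.17% lower, and CpG-rich members 4.61% and 4.10%. Mpv17, a protein of the inner mitochondrial membrane, was at 72.5 in Hdac7SA.Mef2d, 5.39 for Hras.E1A and 1.43 for Hras.Myc. Plxnb2, also among the largest shifts with PD, was at 86.7, 23.3 and 13.5. Nckap5, Pdzd9, Fam198b, Aarsd1, Flt3l (a cytokine of blood progenitors), Hhatl, Omd (osteomodulin) and Matn3 (a cartilage matrix protein) completed the first 10.

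Cd59b, a complement regulator, was the first of the members lower in Hdac7SA.Mef2d, at 13.7 against 98.9 in Hras.E1A and 95.9 in Hras.Myc. Hoxc13, a homeobox gene of hair and nail, had 13.8 in Hdac7SA.Mef2d, 95.7, 93.1 and 98.2 in Hras.E1A untreated, with PD and with TSA, and 99.0, 93.3 and 82.8 in Hras.Myc in that order. All 6 Hras lists were high and Hdac7SA.Mef2d was low. Oaz2, an inhibitor of ornithine decarboxylase, showed the same order, with 9.92 in Hdac7SA.Mef2d and 83.6 or more in the Hras lists. Tmsb15b2, which has close copies beside it on the X chromosome so that its reads may not be placed uniquely, was at 19.4 and at 81.2 or more. Lect2, whose sequence is printed above, was at 5.52, and the cardiac factor gene Tbx20 at 24.2, against 89.2 and 91.8 in the untreated Hras lines. Spocd1, Fam71f1, Pamr1 and Adgra1 were the others. For Spocd1 the smaller of the 2 shifts was -67.1 points, and -27.4 with the mean score of the locus in place of the highest. Over all 12516 gene symbols with a member, 641 were higher in Hdac7SA.Mef2d and 602 lower. ERK targets had 6 of 36 higher and 0 lower, neural markers 4 of 11 higher and 2 lower, and fibroblast, epithelial and Hox genes had 2, 1 and 2 higher and 2 each lower. The respiratory chain had 3 higher and 1 lower, cell cycle genes 2 and 1, p53 targets 1 and 1, proteasome subunits 2 and 0, and ribosomal proteins, splicing factors, chaperones, nucleolar genes, glycolysis and hypoxia, hepatocyte markers and the family of the transgenes 1 and 0. Replication-dependent histones had 0 and 2, histone acetyltransferases and deacetylases and endothelial markers 0 and 1, and the other 5 lists 0 in either direction. Of the 330 members with AP-1, 33 (10.0%) were lower in Hdac7SA.Mef2d and 22 (6.67%) higher, beside 4.84% and 5.28% of all members.

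The promoters of the mouse genes behind the transgenes were members. Hras, whose locus also lies within 1000 bp of the TSS of Lrrc56, was at 64.0 in Hdac7SA.Mef2d, 60.1 for Hras.E1A and 66.6 for Hras.Myc. Myc was at 12.4, 18.0 and 15.5, Hdac7 at 3.11, 3.72 and 6.48, and Mef2d at 26.1, 31.8 and 32.5. None of them differed by 20 points between the untreated lines. These are the endogenous promoters, and the lists do not measure the transgenes. Epcam, an epithelial adhesion gene, was at 51.5, 41.8 and 60.6, while the promoter of Cdh1, the epithelial cadherin, was open in 6 lists and is no member. Isl1 and Tcf7l2, genes the study names, had mean percentiles of 79.0 and 82.7. Tcf7l2 stood at 28.2 in Hras.Myc with TSA against 98.1 untreated, while it was 95.5 in Hras.E1A with TSA. The study reports chromatin that closed with PD at Epcam and Cdh1, and in Hras.E1A at enhancers near developmental genes such as Isl1 and Tcf7l2. Members at Epcam, Isl1 and Tcf7l2 have a peak in both PD lists by rule, so the loss of a peak cannot be seen in them. Their ranks with PD are not given, and that report was not tested here.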

How the data were processed

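ATAC-seq reads were, per the methods of the study, aligned to mm10 with Bowtie2 and peaks were called with MACS2 (versions 2.4.5 and 2.2.7.1 in the submitters' processing notes). The authors then recovered weak peaks with redefine_peaks, a step that shares peaks across samples, and deposited 1 peak list per group, in which libraries were pooled (1 library for each TSA group). The score of each deposited peak was computed by the authors, and its scale is not stated. Here the score served as a rank within its list and nothing else. Depth is unknown because the files hold no read counts, and the absence of a peak does not mean the absence of reads.

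A locus took the highest score of its peaks in each list. Percentiles were computed per list among the 29875 loci open in all 7 lists, and a shift of 20 points or more in the same direction in both Hras lines was counted. Start sites and features came from the GENCODE M21 basic annotation (GRCm38) and sequence from the RefSeq GRCm38.p6 assembly, with coordinates counted from 1. CpG content was read in the central 400 bp and motifs in the central 200 bp, and GC weighting used 10 bins. Shares carry exact binomial (Clopper-Pearson) 95% intervals, medians carry 95% order-statistic intervals, and ratios carry log-normal intervals, all of which cover counting error only and treat loci as independent. With 1 list per group no test was made.

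Members, gene lists and motifs were chosen with earlier results of these data known. Genes take the name of the nearest protein-coding TSS, and those named were the 8 highest and 8 lowest by mean percentile, the 10 with the largest shift in each direction for PD, for TSA and for Hdac7SA.Mef2d (by the smaller of the 2 shifts), the 5 genes with most member loci, the 5 widest loci, up to 6 genes per gene list by mean PD shift, and Hras, Myc, Hdac7, Mef2d, Cdh1, Epcam, Isl1 and Tcf7l2, with 1 locus per gene and predicted genes left out. The text prints part of these (1 gene among those lower with PD is not reported here), and genes named outside this rule (markers, Klf4, Sall4, Fos, Egr1, genes absent from the members, and genes shifted in opposite directions) were chosen after their values were seen.

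Alternatives were other overlaps, windows and distance measures, removal of weak peaks, lists of equal size, autosomes, each list left out, the mean score, ranks among members or in the whole list, thresholds of 10 and 30 points, loci 400 bp wide, a motif window of 100 bp and GC weighting. The steps were tested on simulated data. Python 3.11.15, numpy 2.4.6, pandas 2.3.3, scipy 1.17.1 and matplotlib 3.10.9 were used.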

Additional observations from a re-analysis of the deposited data

Results flagged for a closer look

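Some members moved by 20 points or more in opposite directions in the Hras lines. With PD, 97 members (0.792%, beside 1.90% of all loci open in every list) ranked higher in Hras.E1A and lower in Hras.Myc. Kcnip1, a protein that modulates potassium channels, had shifts of 59.7 and -55.0 points, followed by Ankrd35 and Zfp105. The reverse was seen for 55 members (0.449%, beside 1.29%), among them Myl3, a myosin light chain of heart and slow muscle, with -55.8 and 49.6 points, Pcdhga1 and Rgs12. With TSA, 76 members (0.620%, beside 1.99%) ranked higher in Hras.E1A and lower in Hras.Myc, led by the glycosyltransferase gene Galnt9 with 49.6 and -54.4 points, and 58 (0.473%, beside 1.26%) did the reverse, led by the sulfotransferase gene Chst8 with -36.3 and 39.3 points. With 1 list per group the difference between the lines was not tested.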

How the results depend on the processing

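With lists of equal size the rule found 6143 members, and the other settings gave 10889 to 12852. At 10 points, 1417 members were higher and 405 lower with PD in both lines, 2206 and 344 with TSA, and 2105 and 1384 in Hdac7SA.Mef2d against both Hras lines. At 30 points these counts were 123 and 34, 151 and 28, and 189 and 254. Ranked among members only, 216 were lower with PD, 250 higher and 292 lower with TSA. Ranked in the whole lists, 42 were lower with TSA and 364 higher in Hdac7SA.Mef2d. Ranked among members only, the median shift of a gene list changed sign in 14 of 40 cases with PD and 8 of 40 with TSA, among them aminoacyl-tRNA synthetases with PD in Hras.Myc (-0.0122 points), nucleolar genes with PD in Hras.Myc (-1.51), cholesterol synthesis with TSA in Hras.E1A (-1.05), glycolysis and hypoxia with TSA in Hras.Myc (-1.96) and replication-dependent histones with TSA in Hras.E1A (-0.498). Ranked in the whole lists, 2 of 40 and 1 of 40 changed sign. With GC weighting the CArG box was the 1 motif of 15 whose ratio to the other promoter loci changed direction, from a log2 ratio of -0.160 to 0.616. The mean score and loci 400 bp wide left every count of shifted members within 1.5 times. The AP-1 share of members lower with PD, 28.8%, was 15.8 to 50.0% under 6 settings chosen after seeing the data, against 2.69% of all members. No paired analysis was possible because each list pools the libraries of its group, so replicate numbers are not kept. Unknown depth, pooled libraries, weak peaks shared between lists and single TSA libraries limit all of these comparisons, and rank changes of members with scores near the floor rest on weak peaks.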
